A study of Mus musculus with 16 samples.

Results

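The MHC class I antigen presentation pathway was followed here through 10 genes, namely H2-K1, H2-D1, H2-T23, B2m, Tap1, Tap2, Tapbp, Psmb8, Psmb9 and Nlrc5. They were the protein-coding rows whose gene name equalled a member, and all 10 were found in each of the 2 deposited tables, which hold 56941 genes each, 21684 of them protein-coding. The study asked how activated pancreatic stellate cells (PSCs) and sympathetic ganglia alter each other's transcription when they share medium but not contact. RNA-seq was made from mPSC1 cells, an immortalized murine PSC line, grown alone (PSC, 3 libraries) or with superior cervical ganglion explants (PSC+SCG, 3 libraries). The explants themselves were sequenced after culture alone (SCG, 3 libraries), with mPSC1 cells (SCG+PSC, 4 libraries) or with NIH 3T3 cells, an established mouse embryonic fibroblast line used as control fibroblasts (SCG+MEF, 3 libraries). The ganglia came from wild-type C57BL/6J pups of postnatal day 1 to 4, 8 to 13 explants were plated together, and 10000 cells of the line sat on a culture insert for about 70 hours. No library carried an engineered allele or an added drug, and mPSC1 and NIH 3T3 are each a single immortalized line. The strain of origin of mPSC1 was not given in the sources used here, whereas the reference genome is C57BL/6J, and class I heavy chains differ in sequence among mouse strains.

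MHC class I molecules show peptides from a cell's own proteins to CD8 T cells and natural killer cells. The proteasome cuts the proteins, the TAP transporter carries the peptides into the endoplasmic reticulum, and tapasin holds an empty heavy chain and its light chain beside TAP until a peptide fits. Interferons raise most steps together, through STAT and IRF transcription factors and the transactivator NLRC5, and neurons are known for low class I levels at rest, whereas fibroblasts express the pathway readily.

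In the GRCm39 annotation, 8 of the 10 genes lie on chromosome 17 within the mouse H2 complex or beside it. The classical heavy chain genes H2-K1 and H2-D1 lie at chr17:34214987-34219321 on the minus strand and chr17:35481691-35486475 on the plus strand, and the nonclassical heavy chain gene H2-T23, which encodes Qa-1, lies at chr17:36340229-36345571 on the minus strand. Tapbp, encoding tapasin, lies at chr17:34134873-34148267, and 20.9% of its exon bases are shared on the same strand with Zbtb22, so its reads could be split between both genes. Psmb9 (chr17:34400960-34406738, minus strand), Tap1 (chr17:34405996-34416199), Psmb8 (chr17:34416690-34420428) and Tap2 (chr17:34422501-34435829, the last 3 on the plus strand) follow each other in a tight cluster, and the annotated Psmb9 and Tap1 overlap at their 5′ ends on opposite strands. The libraries kept strand. B2m, the light chain gene, lies at chr2:121977957-121983594 and Nlrc5 at chr8:95160984-95253900, both on the plus strand.

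Bases upstream of the start sites were read from RefSeq windows on GRCm38.p6, an older build than that of the counts, and 8 of the 10 genes had an entry. They are shown because most members had like orders of libraries, H2-K1 and H2-D1 being apart in the explants. The capitals mark matches to 3 motifs searched on both strands in the window from 250 bases before to 50 bases after the start site. These were the ISRE core GAAANNGAAA (bound by interferon regulatory factors), present in 3.44% of all 32851 RefSeq windows, the GAS core TTCNNNGAA (bound by STAT dimers), in 8.30%, and the kappa B consensus, in 8.46%. Among the 8 members, the ISRE core stood in 2, B2m and H2-T23, the GAS core in 1, Psmb8, and the kappa B consensus in 3, B2m, H2-K1 and H2-D1. A member without a match lacks only these exact letters. Sites that depart from them, also in H2-K1 and H2-D1, were not searched, so no factor is shown to lack a site. In B2m the ISRE core and the kappa B match stood 3 bases apart. The ISRE core of H2-T23 lies on the opposite strand, so its capitals show the complement. The GAS core is its own reverse complement, and in H2-K1 and H2-D1 the capitals are overlapping kappa B matches of both strands.
B2m, chr2:122147437-122147686, plus strand: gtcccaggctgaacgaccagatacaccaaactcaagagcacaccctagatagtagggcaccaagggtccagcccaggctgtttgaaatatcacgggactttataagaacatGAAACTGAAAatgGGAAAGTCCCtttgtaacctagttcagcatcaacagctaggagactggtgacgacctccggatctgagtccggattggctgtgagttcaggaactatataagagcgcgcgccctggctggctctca
H2-T23, chr17:36032702-36032951, minus strand: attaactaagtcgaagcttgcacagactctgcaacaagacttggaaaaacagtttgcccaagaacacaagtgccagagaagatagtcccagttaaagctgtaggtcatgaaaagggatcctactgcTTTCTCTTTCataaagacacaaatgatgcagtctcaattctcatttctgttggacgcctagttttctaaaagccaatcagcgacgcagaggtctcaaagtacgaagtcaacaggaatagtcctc
Psmb8, chr17:34197945-34198194, plus strand: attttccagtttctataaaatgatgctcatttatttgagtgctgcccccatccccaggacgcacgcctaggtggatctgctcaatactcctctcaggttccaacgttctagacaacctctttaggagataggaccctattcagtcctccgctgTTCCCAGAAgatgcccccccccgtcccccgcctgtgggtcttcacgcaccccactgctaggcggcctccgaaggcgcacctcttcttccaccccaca
H2-K1, chr17:34000348-34000597, minus strand: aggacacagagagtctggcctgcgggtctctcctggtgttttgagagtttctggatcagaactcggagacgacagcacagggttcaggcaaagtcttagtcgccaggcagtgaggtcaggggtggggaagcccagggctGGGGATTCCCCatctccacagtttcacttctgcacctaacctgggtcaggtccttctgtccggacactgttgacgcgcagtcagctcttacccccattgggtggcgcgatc
H2-D1, chr17:35262844-35263093, plus strand: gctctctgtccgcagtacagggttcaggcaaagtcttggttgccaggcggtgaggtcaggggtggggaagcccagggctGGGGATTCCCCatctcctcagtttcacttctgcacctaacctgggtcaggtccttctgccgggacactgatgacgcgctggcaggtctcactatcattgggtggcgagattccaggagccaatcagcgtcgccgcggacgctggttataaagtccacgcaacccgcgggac

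The upstream bases of the classical heavy chain genes are near copies of each other. They aligned over 177 columns, of which 161 (91.0%) were identical, and shared an unbroken run of 47 bases. Tap1 and Psmb9 are read outward from one stretch of 225 bases, shown because the same bases stand before a transporter gene and a proteasome gene. None of the 3 motifs stood in it, which says only that these letters are not in this window.
Between the start sites of Psmb9 and Tap1, chr17:34187331-34187555, plus strand: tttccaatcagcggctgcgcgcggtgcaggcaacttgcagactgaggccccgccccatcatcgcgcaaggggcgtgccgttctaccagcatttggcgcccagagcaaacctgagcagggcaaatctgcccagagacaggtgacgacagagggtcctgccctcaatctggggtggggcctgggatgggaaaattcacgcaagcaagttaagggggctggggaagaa

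Depth differed little between libraries. Whole reads could be recovered from the normalized counts of 14 of the 16 libraries, which held 31900689 to 41632381 reads on genes (median 35468049). It could not be done for SCG+PSC replicate 4 or for replicate 1 of PSC+SCG. Markers of the labelled cell types were present. In the PSC libraries the 7 fibroblast markers summed to 457022 to 661983 normalized counts (PSC) and 395936 to 682209 (PSC+SCG), and in the explants the 11 sympathetic neuron markers summed to 127646 to 264526 (SCG), 183666 to 242160.0 (SCG+MEF) and 143622 to 251784 (SCG+PSC). The explants are mixtures that also held glial, fibroblast, endothelial and macrophage markers, so fewer cells of a type and less RNA per cell cannot be told apart in them. Nothing in the labels says that libraries of a group came from separate cultures, so the tests measure the spread between these libraries, which may be technical. Both tables were normalized apart, and groups were compared only within a table.

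The stellate cells expressed the whole pathway. Per kilobase of the canonical transcript, B2m stood highest, at 32486 ± 8679.7 normalized counts (SD, n = 3) in PSC. H2-K1 followed at 10266 ± 3487, H2-D1 at 8602 ± 2602 and Tapbp at 5804 ± 2426, and the mean ± SD ranges of neighbours in this order overlapped. H2-T23 (1671 ± 1079), Tap1 (1331 ± 593) and Psmb8 (1003 ± 378) formed a middle group within each other's spread. Nlrc5 (563 ± 287), Tap2 (461 ± 143) and Psmb9 (300.0 ± 152) stood lowest, again with overlapping mean ± SD ranges between neighbours. The order of the 10 genes was the same in PSC+SCG.

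The comparison of PSC+SCG with PSC asks whether ganglion explants in the same medium altered class I expression in stellate cells. None of the 10 members passed the test. Their log2 fold changes ran from -0.17 to 0.25 with a median of -0.091, and 3 of 10 were positive. Over all 14541 protein-coding genes tested the median was 0.010. The test was limma on log2(normalized count + 1), with Benjamini-Hochberg adjustment over all genes tested, and to pass, a gene needed an adjusted p no higher than 0.05 together with a change of 0.5 or more in either direction on the log2 scale. In this fit 0% of protein-coding genes passed, 205 had an unadjusted p under 0.05, and no member did. With the replicate number as a block, 0.523% of protein-coding genes passed and again no member did.

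Heavy and light chains gave high counts in every stellate cell library. H2-K1 had 19972, 19788 and 10104 normalized counts in PSC replicates 1 to 3 and 16863, 22965 and 15695 in PSC+SCG replicates 1 to 3. H2-D1 had 21031, 21738 and 11863 in PSC and 18125, 25695 and 19547 in PSC+SCG. B2m had 36155, 44238 and 25447 in PSC and 39699, 42773 and 28362 in PSC+SCG. For each of these genes the groups overlapped, and PSC replicate 3 was the lowest library of all 6. The log2 fold changes were 0.20 ± 0.28 (SE) for H2-K1, 0.25 ± 0.25 (SE) for H2-D1 and 0.081 ± 0.24 (SE) for B2m, with 95% intervals of -0.43 to 0.83, -0.32 to 0.82 and -0.47 to 0.63. H2-T23, whose product Qa-1 is a ligand for the inhibitory NKG2A receptor, spread most widely, with 2762, 3876 and 744 in PSC and 2266, 4539 and 585 in PSC+SCG. Its replicate 3 libraries were the lowest of both groups by a wide margin and its replicate 2 libraries the highest. Without the block the 95% interval of its change, -1.91 to 1.64, spans more than a log2 unit on either side of 0. With the replicate number as a block that interval was -0.37 to 0.11. The blocked intervals were -0.060 to 0.46 for H2-K1, -0.021 to 0.52 for H2-D1 and -0.15 to 0.31 for B2m.

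The processing and loading genes showed the same order of libraries. Tap1, which pairs with TAP2 in the peptide transporter, had 4459, 5792 and 2151 normalized counts in PSC and 4003, 5572 and 1988 in PSC+SCG. Tap2 had 2061, 2253 and 1189 in PSC and 1722, 2223 and 1209.5 in PSC+SCG. Tapbp had 15975, 25074 and 10806 in PSC and 15418, 23644 and 8338 in PSC+SCG. In each of them replicate 2 was high, replicate 1 intermediate and replicate 3 low, with and without ganglia. Psmb8, the chymotrypsin-like subunit of the immunoproteasome, had 1946, 2199 and 979 in PSC and 1599.8, 2245 and 1059.5 in PSC+SCG. Psmb9, the immunoproteasome subunit that replaces PSMB6, had 491, 555 and 171 in PSC and 372, 585 and 176 in PSC+SCG. Nlrc5, the class I transactivator, had 4349.5, 6403 and 2056 in PSC and 3865, 5381 and 2019 in PSC+SCG. The groups overlapped almost entirely for all 6 genes, whose log2 fold changes lay between -0.17 (Tapbp) and -0.046 (Psmb8).

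**Figure D1:**
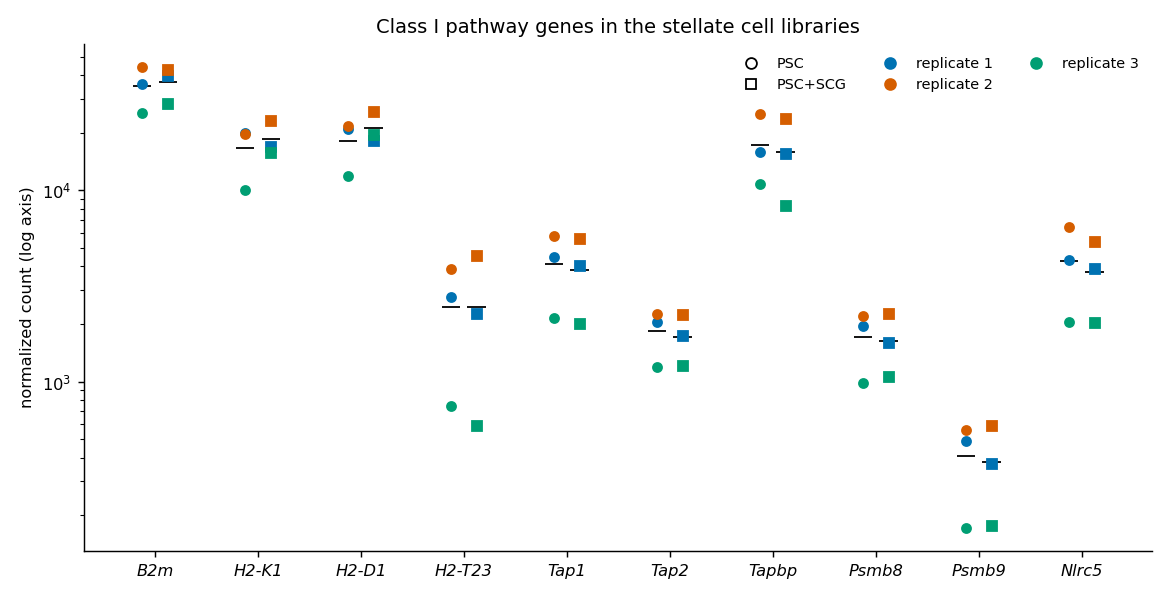
Normalized counts of the 10 class I pathway genes (log axis) in the PSC (circles) and PSC+SCG (squares) libraries, coloured by replicate number, with group means as bars. The replicate 3 libraries sit at the bottom of their group for all 10 genes in PSC and 9 of 10 in PSC+SCG, and the group means lie close together.

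The spread by replicate number was wider for these genes than for most. PSC replicate 3 was the lowest PSC library for 10 of 10 members, against 39.4% of 14541 protein-coding genes, and PSC replicate 2 was the highest for 9 of 10, against 28.3%. In PSC+SCG, replicate 2 was the highest for 10 of 10 (30.4% of genes) and replicate 3 the lowest for 9 of 10 (40.9%), H2-D1 being the exception. The ratio of replicate 3 to replicate 2 had a median of 0.438 over the members in PSC (range 0.192 to 0.575) and of 0.424 in PSC+SCG (range 0.129 to 0.761). Over protein-coding genes with a mean of at least 50 it was 1.01 in both groups. The highest library over the lowest had a median of 2.28-fold over the members in PSC and 2.39-fold in PSC+SCG, where all such genes had 1.23 and 1.34. The 14 constitutive proteasome subunits, which share the pathway but not its induction by interferon, had 1.19 and 1.23. What sets the replicate numbers apart was not tested.

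In the explants the pathway was present at other proportions. B2m was again the highest per kilobase, with 9511 ± 909 normalized counts (SD, n = 3) in SCG. H2-D1 (2945 ± 694) stood above H2-K1 (1576 ± 532), then followed Tapbp (526 ± 51.8) and H2-T23 (289 ± 19.6). Tap2 (123 ± 6.15), Psmb8 (114 ± 43.0) and Nlrc5 (93.6 ± 17.7) followed, with mean ± SD ranges that overlapped between neighbours in this order. Tap1 (67.0 ± 16.3) stood below Tap2, with a mean ± SD range that overlapped that of Nlrc5, while in the stellate cells it stood above it (1331 ± 593 and 461 ± 143 in PSC). Psmb9 was lowest, at 23.1 ± 17.5. Each of these orders is within a group and carries no comparison of levels between the tables.

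The comparison of SCG+PSC with SCG asks what stellate cells in the shared medium did to the explants, and SCG+MEF serves as the fibroblast control. No member passed in any of the 3 explant comparisons. Against SCG, 9 of 10 members were on the positive side in SCG+PSC, with a median log2 fold change of 0.26, where 52.0% of all 15908 protein-coding genes tested were positive, with a median of 0.0073. The percentage of protein-coding genes that passed was 0.0189% for SCG+PSC against SCG, 0.0189% for SCG+MEF against SCG and 0% for SCG+PSC against SCG+MEF. By limma, 1 member (Psmb8) had an unadjusted p under 0.05 in SCG+PSC against SCG and none did in the other comparisons, against 4.14%, 2.44% and 3.07% of protein-coding genes in the same order of comparisons. Neither edgeR nor DESeq2 on the recovered reads called a member. With the replicate number as a block, 1.94%, 0.239% and 1.14% of protein-coding genes passed, and still no member did. In that fit 4, 1 and 2 members had an unadjusted p under 0.05, against 13.3%, 8.10% and 14.8% of protein-coding genes.

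Tap1 gave the largest difference from SCG in SCG+PSC among the members. It had 197, 164 and 263 normalized counts in SCG replicates 1 to 3, 209, 236 and 255 in SCG+MEF replicates 1 to 3 and 327, 726, 207 and 216 in SCG+PSC replicates 1 to 4. SCG+PSC replicate 2 stood far above every other explant library, replicate 1 stood above all SCG and SCG+MEF libraries, and replicates 3 and 4 lay inside their range. The log2 fold change against SCG was 0.84 ± 0.38 (SE), with a 95% interval of -0.0012 to 1.68 and an adjusted p of 1 by limma (0.372 with the replicate block). Leaving out each library in turn moved it from 0.35 up to 1.25, and it was 0.35 without SCG+PSC replicate 2.

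H2-T23 was likewise highest in SCG+PSC replicate 2 and next highest in SCG+PSC replicate 1. It had 435, 393 and 448 in SCG, 424, 394 and 447 in SCG+MEF and 680.1, 1075, 380.3 and 362 in SCG+PSC. The SCG and SCG+MEF libraries were tightly grouped, and SCG+PSC replicates 1 and 2 lay above all of them whereas replicates 3 and 4 lay below all of them. Its log2 fold change was 0.62 ± 0.30 (SE) against SCG and 0.63 ± 0.30 (SE) against SCG+MEF, and the value against SCG fell to 0.26 without SCG+PSC replicate 2. The adjusted p was 1 in both comparisons by limma, and 0.389 and 0.338 with the block.

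The immunoproteasome subunits spread widely within every explant group. Psmb8 had 213, 114 and 257 in SCG, 230.1, 175 and 287 in SCG+MEF and 305, 385, 253 and 184 in SCG+PSC. The SCG+PSC libraries overlapped both other groups, and SCG replicate 2 was the lowest of all 10 libraries. Its log2 fold change was 0.75 ± 0.31 (SE) against SCG, where its adjusted p was 1 by limma and 0.271 with the block, and 0.29 ± 0.31 (SE) for SCG+MEF against SCG. Without SCG replicate 2 the value for SCG+PSC against SCG was 0.40 and that for SCG+MEF against SCG -0.048. The same SCG libraries stand in both of these contrasts. Over the limma, edgeR and DESeq2 fits that left out no library, the smallest adjusted p of Psmb8 in SCG+PSC against SCG was 0.0687. Psmb9 had 21.3, 14.3 and 58.4 in SCG, 17.2, 30.7 and 55.8 in SCG+MEF and 26.9, 47.6, 19.2 and 20.2 in SCG+PSC, so that its range within SCG alone was 4.09-fold, and a difference between groups was not detectable at this spread.

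Tap2 and Tapbp differed by smaller amounts. Tap2 had 517, 482 and 470.3 in SCG, 668, 597 and 553 in SCG+MEF and 660.0, 756, 494 and 432 in SCG+PSC. The SCG+MEF libraries lay above all SCG libraries without overlap, and the SCG+PSC libraries spanned both groups. Tap2 gave log2 fold changes of 0.36 ± 0.17 (SE) for SCG+PSC and 0.30 ± 0.17 (SE) for SCG+MEF against SCG, at adjusted p of 0.251 and 0.583 by limma with the block. Between SCG+PSC and SCG+MEF its value was 0.052 ± 0.17 (SE). Tapbp had 1734, 1433 and 1529 in SCG, 1964, 1609 and 1631 in SCG+MEF and 1893, 2409.6, 1491 and 1503 in SCG+PSC, where replicate 2 alone lay above every other library.

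The classical heavy chains were not highest in SCG+PSC replicate 2. H2-K1 had 2574, 1678 and 3402 in SCG, 2466, 1987 and 3459 in SCG+MEF and 2545, 2142, 2669.6 and 2341 in SCG+PSC. H2-D1 had 6894, 4551 and 7259 in SCG, 6798, 5173 and 6743 in SCG+MEF and 6765, 5129, 6852 and 5948 in SCG+PSC. In both genes replicate 2 was the lowest library of every explant group, including SCG+PSC, where Tap1 and H2-T23 were highest in replicate 2. The log2 fold changes of SCG+PSC against SCG were -0.0046 ± 0.26 (SE) for H2-K1 and 0.021 ± 0.20 (SE) for H2-D1, with 95% intervals of -0.58 to 0.57 and -0.42 to 0.46, which the block narrowed to -0.25 to 0.24 and -0.14 to 0.18. Reads of H2-K1, H2-D1 and the H2-Q genes can share sequence, so their separate counts are uncertain.

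B2m and Nlrc5 lay between these patterns. B2m had 11309.5, 10342 and 9335 in SCG, 10231, 10001 and 11484 in SCG+MEF and 11106, 13740.0, 10900.4 and 11199.9 in SCG+PSC, and SCG+PSC replicate 2 was the highest of the 10 explant libraries. Its log2 fold change was 0.20 ± 0.13 (SE) against SCG. Nlrc5 had 865, 629 and 635 in SCG, 897, 515 and 606 in SCG+MEF and 915, 875, 724 and 699 in SCG+PSC. The replicate 1 libraries were the highest of each group, and the change of Nlrc5 was 0.25 ± 0.21 (SE) against SCG and 0.35 ± 0.21 (SE) against SCG+MEF, at an adjusted p of 0.277 for the latter by limma with the block.

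**Figure D2:**
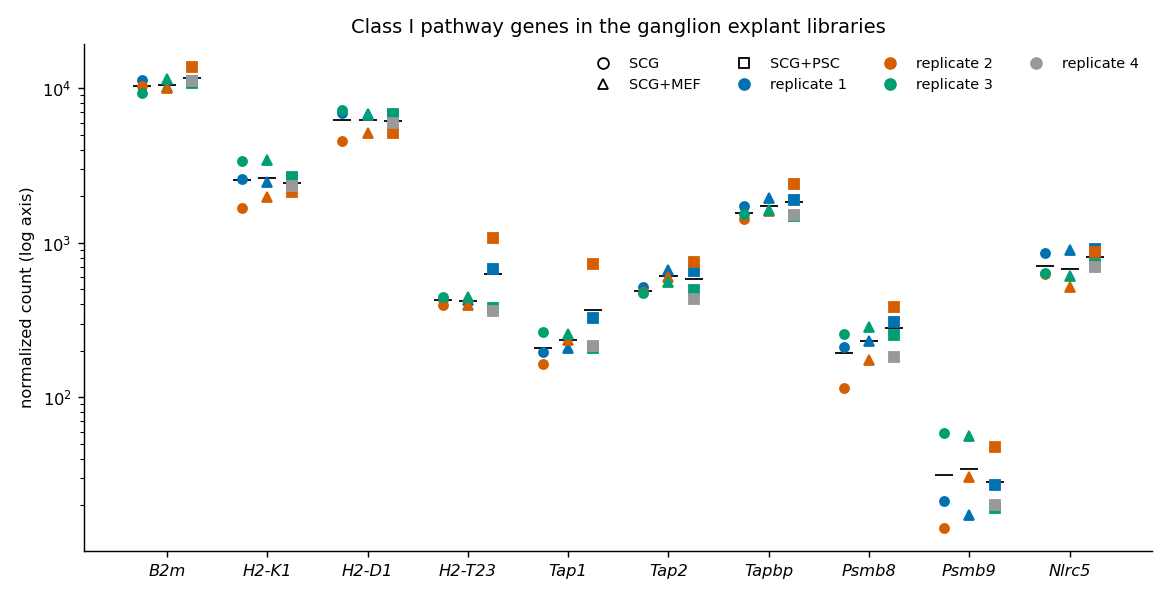
Normalized counts of the 10 class I pathway genes (log axis) in the explant libraries, SCG (circles), SCG+MEF (triangles) and SCG+PSC (squares), coloured by replicate number, with group means as bars. For H2-T23 and Tap1 the SCG+PSC replicate 1 and 2 libraries stand above all SCG and SCG+MEF libraries, and replicates 3 and 4 do not.

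**Figure D3:**
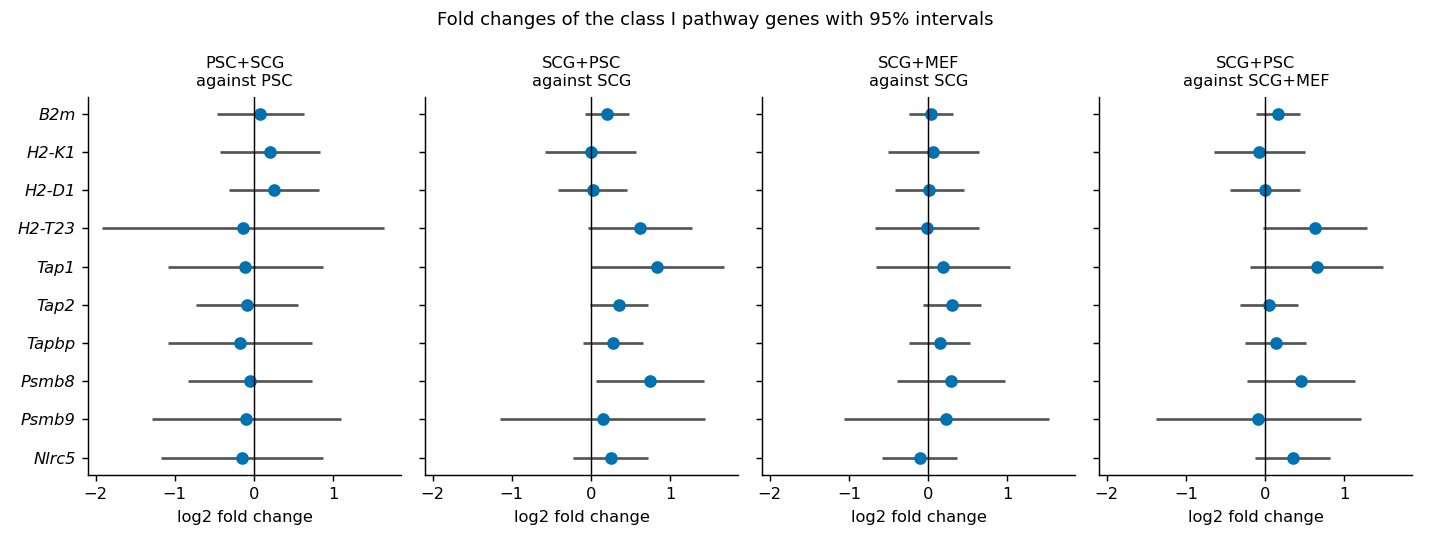
Log2 fold changes of the 10 genes in the 4 comparisons by limma without the replicate block (points) with 95% intervals (lines). Nearly all intervals include 0, the exception being Psmb8 in SCG+PSC against SCG at 0.063 to 1.43 before adjustment, and the widest is that of H2-T23 in PSC+SCG against PSC.

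SCG+PSC replicate 2 stood apart. That library was the highest of the 4 SCG+PSC libraries for 7 of 10 members, against 31.0% of 15984 protein-coding genes, and its ratio to replicate 3 had a median of 1.53 over the members, against 1.01 over protein-coding genes with a mean of at least 50. Against the same-numbered SCG library, Tap1 differed by 0.73, 2.14 and -0.34 on the log2 scale in replicates 1, 2 and 3, and H2-T23 by 0.64, 1.45 and -0.24. Tap2 and Nlrc5 were higher in all 3 numbers, by 0.35, 0.65 and 0.069 and by 0.082, 0.48 and 0.19. The mean of the members' centred log2 values was 0.53 in SCG+PSC replicate 2 and 0.22 in replicate 1, but -0.11 and -0.21 in replicates 3 and 4. The 6 SCG and SCG+MEF libraries lay between -0.45 and 0.16. Replicate 2 also had the lowest sympathetic neuron marker sum of each explant group, 127646 in SCG, 183666 in SCG+MEF and 143622 in SCG+PSC. Its fibroblast marker sum was the highest of each, at 390833, 405357 and 390570. The members' mean centred value was -0.45 in SCG replicate 2 and -0.18 in SCG+MEF replicate 2. What part the mixture of cells has in these values was not tested.

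The other genes of the pathway were read from lists. Of the 16 other class I genes, 14 were tested in the explants, and in SCG+PSC against SCG they had 11 of 14 tested genes on the positive side, a median of 0.44 and a range of -0.22 to 1.56. H2-Q4, a nonclassical heavy chain gene, had 399.9, 352 and 383 in SCG, 369, 414 and 373 in SCG+MEF and 529, 729.9, 512 and 486 in SCG+PSC. All 4 SCG+PSC libraries lay above all 6 others, at a log2 fold change of 0.62 ± 0.13 (SE) against SCG in the fit with the replicate block, where it passed (adjusted p = 0.0419 by limma), while it did not without the block (adjusted p = 1). It was the only gene of its list to pass there. In PSC+SCG against PSC the 11 tested genes of this list had a median of 0.013 and none passed.

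The peptide trimming and loading list (ERAP1, calreticulin and the like) had 8 of 8 tested genes on the positive side, a median of 0.16 and a range of 0.0077 to 0.39 in SCG+PSC against SCG. The inducible proteasome partners, PSMB10, the PA28 activator subunits, the inhibitor PSMF1 and the maturation factor POMP, had 5 of 5 tested genes on the positive side, a median of 0.082 and a range of 0.039 to 0.42. The 14 constitutive proteasome subunits had 11 of 14 tested genes on the positive side, a median of 0.033 and a range of -0.076 to 0.13. The interferons, their receptors and kinases, 8 of 13 tested, had 4 of 8 tested genes on the positive side, a median of 0.0089 and a range of -0.22 to 0.58. The MHC class II genes, which present peptides from outside the cell, had 5 of 7 tested genes on the positive side, a median of 0.083 and a range of -0.71 to 0.37. No gene of these 5 lists passed in any comparison by limma, with or without the block. In PSC+SCG against PSC their medians were 0.0059, -0.14, -0.079, 0.022 and -0.18, in the same order. In the stellate cells the class II genes, given after their values were seen, differed among themselves. H2-Aa was listed at 0 in all 6 libraries, and Ciita, H2-Ab1 and H2-Eb1 had at most 18.8 normalized counts in any. Cd74 had 42.6 to 126, H2-DMa 112 to 145 and H2-DMb1 349 to 649.

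Among the 16 transcription factors of class I genes, Irf7 and Irf9 passed with the block and none without it. Irf7, the interferon-induced factor that drives type I interferon genes, had 36.4, 59.0 and 77.9 normalized counts in SCG, 45.6, 66.6 and 90.2 in SCG+MEF and 385, 1503, 125 and 91.8 in SCG+PSC. Every SCG+PSC library was above every SCG and SCG+MEF library, though replicate 4 only barely, and replicate 2 was far above replicates 3 and 4. Its log2 fold change against SCG was 2.90 ± 0.58 (SE) in the blocked fit, with an adjusted p of 0.0304 by limma with the block and 1 without. Irf9, a member of the interferon regulatory factor family, had 911, 734 and 729.5 in SCG, 871, 921 and 684 in SCG+MEF and 1640.3, 3035, 1035 and 1062 in SCG+PSC. All SCG+PSC libraries lay above all SCG and SCG+MEF libraries, and the latter groups overlapped each other. Irf9 passed with the block against SCG (log2 fold change 1.13 ± 0.21 (SE), adjusted p = 0.022 by limma) and against SCG+MEF (1.08 ± 0.21 (SE), adjusted p = 0.0406), but not without it.

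Stat2, added after its values were seen, had the same order of SCG+PSC replicates 1 to 3 but overlapped the other groups. It had 1883, 1921 and 2416 in SCG, 2281, 2205 and 2454 in SCG+MEF and 3021, 5864, 2376 and 2291 in SCG+PSC. SCG+PSC replicates 1 and 2 were above all SCG and SCG+MEF libraries, and the gene did not pass with or without the block. In the stellate cells Irf7 had 10295, 16457 and 3434 in PSC and 9946, 16375 and 3108 in PSC+SCG, the same order of replicate numbers as Tap1 and H2-T23 there. Ifng was listed at 0 in all 16 libraries. Ifnb1 was low, with 8.46, 31.8 and 6.74 in PSC, 14.8, 15.8 and 6.38 in PSC+SCG, and 0 in all explant libraries but SCG+PSC replicate 3.

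**Figure D4:**
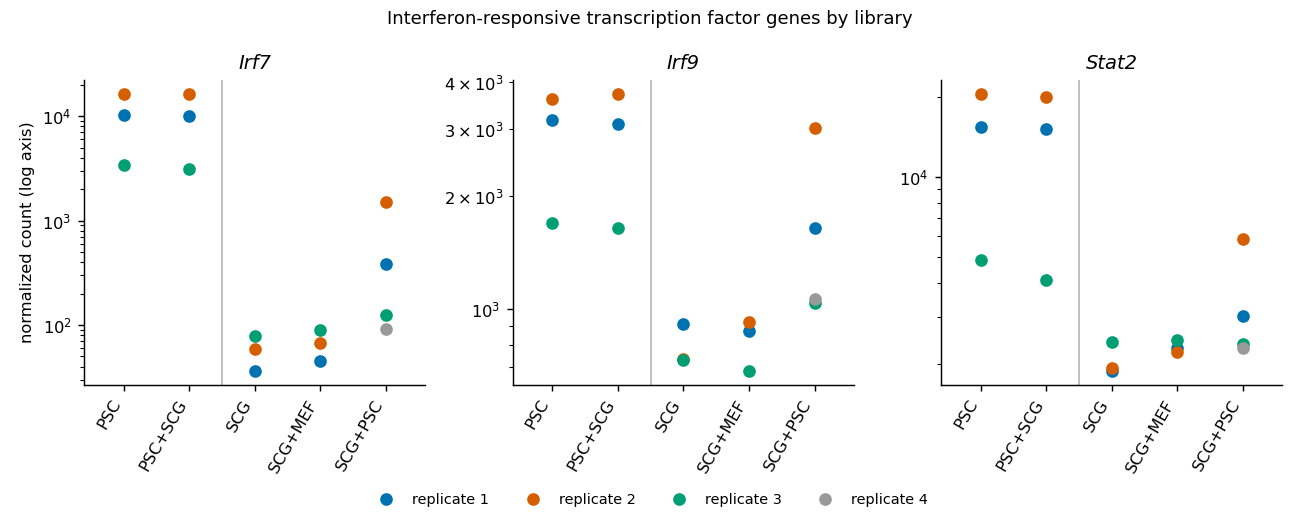
Normalized counts (log axis) of Irf7, Irf9 and Stat2 in every library, coloured by replicate number. The grey line divides the stellate cell table from the explant table, whose levels were scaled apart. In PSC, PSC+SCG and SCG+PSC replicate 2 is highest, replicate 1 next and replicate 3 lower. That order was not seen in SCG, and in SCG+MEF only for Irf9.

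The order of replicate numbers was compared between the tables. Of the 9 members with a mean of at least 50 in both tables, 6 ranked replicates 1, 2 and 3 alike in PSC+SCG and SCG+PSC, where 13.6% of 11208 protein-coding genes did. None of the 9 ranked them alike in PSC+SCG and SCG (15.1% of genes) or in PSC+SCG and SCG+MEF (13.1%). With PSC in place of PSC+SCG the counts were 6 with SCG+PSC (19.5% of genes), 0 with SCG (20.7%) and 0 with SCG+MEF (22.4%). These are counts over genes that move together in a handful of libraries, they carry no test, and the labels do not say which PSC and explant libraries shared a well.

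The transcripts of proteasome subunits that replace each other can be set in a ratio within a library, free of scaling between libraries. Such a ratio is of RNA and does not measure the exchange of subunit proteins in proteasomes. Psmb8 over Psmb5, the subunit it replaces, was 1.82, 1.85 and 0.680 in PSC and 2.03, 1.97 and 0.648 in PSC+SCG, as a ratio of counts per kilobase. In the explants it was 0.144, 0.0843 and 0.136 in SCG, 0.159, 0.114 and 0.198 in SCG+MEF and 0.206, 0.283, 0.157 and 0.121 in SCG+PSC. By the lengths of the canonical transcripts, stellate cell replicates 1 and 2 thus held more Psmb8 than Psmb5 transcript and replicate 3 less, and every explant library held far less. Those lengths are 1702 and 1701 bases, whereas all annotated exons together cover 3414 bases in Psmb8 and 1794 in Psmb5. The length taken can therefore decide whether Psmb8 exceeds Psmb5 in replicates 1 and 2. Psmb10 over Psmb7 was 0.436, 0.668 and 0.240 in PSC, 0.125, 0.108 and 0.117 in SCG, 0.138, 0.130 and 0.134 in SCG+MEF and 0.159, 0.187, 0.121 and 0.107 in SCG+PSC. Psmb9 over Psmb6 was low in all libraries, with 0.0586, 0.0582 and 0.0178 in PSC and 0.00411, 0.00326 and 0.0103 in SCG.

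**Figure D5:**
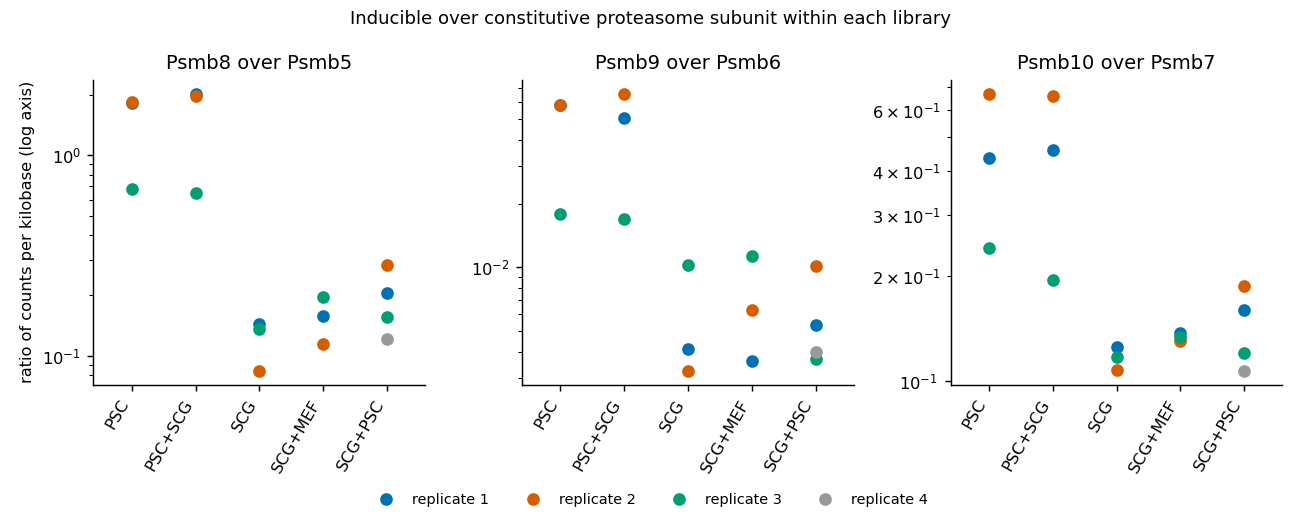
Transcript ratio of an inducible proteasome subunit to the constitutive subunit it replaces, in counts per kilobase within each library (log axis), for 3 pairs. Replicate 3 is the lowest stellate cell library in all 3 panels, and in each of them every stellate cell library lies above every explant library.

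The genes most like the members over the 10 explant libraries were sought among 12836 protein-coding genes with a mean of at least 50, by Pearson's r with the members' mean centred log2 value. They were Psmb10 (r = 0.98), Parp10 (0.98), Lgals3bp (0.94), Hmga1b (0.94), Trim21 (0.92), Igtp (0.92), Hmga1 (0.92), Ifit1 (0.91), Adar (0.91) and Oasl2 (0.90). All points share the same libraries and scaling, and the largest value, that of SCG+PSC replicate 2, weighs heavily. Ifit1 for example had 162, 99.9 and 328 in SCG, 164, 106 and 244 in SCG+MEF and 477, 2429, 189 and 179 in SCG+PSC. Among the members, Psmb8 (0.95), Tap1 (0.89) and H2-T23 (0.86) lay closest to their common mean and H2-K1 (0.43) and H2-D1 (0.28) farthest.

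Markers of other cells were set beside these values. The 15 macrophage markers summed to 9330.1 to 14828 normalized counts in SCG, 10157 to 14771 in SCG+MEF and 10393 to 12927 in SCG+PSC, and all 15 were detected in each group. In SCG+PSC against SCG, 5 of the 15 were on the positive side, and Mrc1 alone passed with the block (1.15 ± 0.18 (SE), adjusted p = 0.00999 by limma), with 149, 283 and 163 in SCG, 346, 361 and 266 in SCG+MEF and 390.4, 427, 452 and 513 in SCG+PSC. Mrc1 was highest in SCG+PSC replicate 4, where Tap1 and H2-T23 were low. The fibroblast markers summed to 208256 to 390833 in SCG, 286399 to 405357 in SCG+MEF and 281765 to 390570.0 in SCG+PSC, and Lum passed with the block in SCG+PSC (0.65 ± 0.13 (SE)) and SCG+MEF (1.29 ± 0.13 (SE)) against SCG and in SCG+PSC against SCG+MEF (-0.64 ± 0.13 (SE)), as did Dcn in SCG+MEF against SCG (0.74 ± 0.12 (SE)). The 8 endothelial markers summed to 4420.1 to 5192 in SCG, 3997 to 5019 in SCG+MEF and 4674 to 5115 in SCG+PSC. In SCG+PSC against SCG they had 6 of 8 tested genes on the positive side, a median of 0.87 and a range of -0.48 to 1.55, with an unadjusted p under 0.05 for 7 of them by limma, against 4.14% of protein-coding genes, and none past the threshold. The 7 satellite glia and Schwann cell markers summed to 44722 to 60215 in SCG, 48330.2 to 63557 in SCG+MEF and 47964 to 60193 in SCG+PSC. Of these Fabp7 passed with the block in SCG+MEF against SCG (-0.50 ± 0.080 (SE)) and in SCG+PSC against SCG+MEF (0.56 ± 0.080 (SE)). The 4 pancreatic acinar cell markers summed to at most 31.4 in any library. The 8 T and NK cell markers summed to 41.0 to 118 in SCG, 51.7 to 129 in SCG+MEF and 35.5 to 91.1 in SCG+PSC. Nearly all of that was Cd4, which had 35.5 to 129 in the explant libraries, where Cd8a had at most 4.05, Prf1 at most 0.951 and Cd3d, Cd3e, Cd3g, Ncr1 and Nkg7 were at 0. In the stellate cells Ptprc, Adgre1, C1qb, C1qc, Itgam and Tyrobp were at 0 in all 6 libraries, the same libraries in which class I levels differed between replicate numbers. The part of these cell types in the class I values of the explants was not tested.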

How the data were processed

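RNA-seq libraries (TruSeq Stranded mRNA) were aligned by the authors with STAR 2.7.10b to GRCm39 and counted per gene against a GENCODE annotation. The deposited values are a signal, counts divided by a DESeq2 1.38.3 size factor (R 4.2.2) within each of 2 tables, per the submitters' processing notes and methods. Dividing each deposited signal by the value of 1 read gave whole reads, within 0.01, in 14 of 16 libraries.

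Groups came from the sample labels. Members and lists were chosen with earlier results of these data known. All 10 members were named, list genes were named only where they passed a threshold, for a list with none at most 2 of the highest mean, and the 10 genes most like the members by Pearson's r were described, apart from exceptions stated in the text. limma 3.58.1 (trend) was run in R 4.3.3 on log2(normalized count + 1) for genes with a summed count of at least 10, in 6 stellate cell libraries and in 9 explant libraries, replicates 1 to 3 of each group. p-values were adjusted by Benjamini-Hochberg over 21273 and 23491 genes. edgeR 4.0.16 (quasi-likelihood) and DESeq2 1.42.0 were run on the recovered reads of the 9 explant libraries. The authors' model had a batch date that no label ties to a library. Same-numbered libraries deviated together in every pair, with correlations of 0.395 to 0.826 over protein-coding genes with a mean of at least 50, so fits with the replicate number as a block are given where they change a call or a count. Among 13 pairs of libraries of a group none agreed within sampling noise (chi-square per gene of at least 30.8). limma, edgeR and DESeq2, with and without the block, were tested on simulated data with a common spread for all genes and no shift by replicate number. That test cannot show how the fits behave where same-numbered libraries deviate together, as they do here. Lengths, strands and coordinates came from GENCODE on GRCm39, in a later release than that used for counting, and upstream sequences from RefSeq on GRCm38.p6.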

Additional observations from a re-analysis of the deposited data

Results flagged for a closer look

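B2m in the 4 SCG+PSC libraries was flagged because 1 library lay far from the others. Replicate 2 had 13740.0 normalized counts where the other libraries lay between 10900.4 and 11199.9, a gap of 0.895 of the whole range, above Dixon's 95% critical value for 4 samples. Chance flags about 1 in 20 groups, and 13 genes were looked at. The same library was also the highest of its group for H2-T23, Tap1, Tap2, Tapbp, Psmb8 and Psmb9.

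SCG+PSC replicate 4 was kept out of the fits. In it H2-Q4, Irf7 and Irf9, named above because they passed with the block, lay above every SCG and SCG+MEF library. The share of all protein-coding genes above every control library in it was not computed, so no weight is given to how many genes did so. H2-Q4 had 486 normalized counts there, against at most 399.9 in SCG and 414 in SCG+MEF. Irf7 had 91.8, against at most 77.9 and 90.2. Irf9 had 1062, against at most 911 and 921. None of the 10 class I members was above all control libraries in this library, also without a share over all genes beside it.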

How the results depend on the processing

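No class I member passed the threshold in any comparison under any alternative run, and every count of members stayed at 0. These alternatives were the replicate block, pseudocounts of 0.5 and 8, no filter or a stricter one (at least 10 in at least 3 libraries), quantile scaling, the adjusted p alone, adjustment over protein-coding genes only, and leaving out each library in turn. In the explants they also included all 4 SCG+PSC libraries, 2 groups only, edgeR and DESeq2. Of the members' log2 fold changes under settings that left out no library, 526 kept their direction and 4 reversed, all in SCG+PSC against SCG+MEF and all near 0. They were H2-D1 (-0.013) and Tap2 (-0.082) with all 4 SCG+PSC libraries, and Psmb9 with edgeR (0.027) and DESeq2 (0.064), both with the block. The cause of these reversals was not tested. Many of the 526 could not have reversed. Filters, adjustment choices and 2 groups only leave a limma estimate unchanged, as does the block on 3 libraries per group. With each library left out in turn, 274 kept their direction and 56 reversed.

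The count of protein-coding genes past the threshold was the value that moved. The replicate block raised it from 0 to 76 in PSC+SCG against PSC, from 3 to 309 in SCG+PSC against SCG, from 3 to 38 in SCG+MEF against SCG and from 0 to 181 in SCG+PSC against SCG+MEF, and the block changed no call of a member. With the block and all 4 SCG+PSC libraries the 3 explant counts were 308, 38 and 182, with edgeR and the block 323, 36 and 206, and with DESeq2 and the block 415, 104 and 365. DESeq2 without the block gave 58, 21 and 18, and edgeR without it 3, 3 and 0. For SCG+PSC against SCG the count was 6 with adjustment over protein-coding genes only and 8 with all 4 SCG+PSC libraries. Fitting 2 groups only gave 1 there and 1 in SCG+MEF against SCG. Leaving out each library in turn gave 1 to 2 in SCG+PSC against SCG and 0 to 3 in SCG+MEF against SCG. It gave 0 in the remaining comparisons.

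In PSC+SCG against PSC, leaving out each library in turn moved H2-T23 from -0.85 to 0.68, Tap1 from -0.52 to 0.31, Tap2 from -0.37 to 0.15, Psmb8 from -0.41 to 0.23, Psmb9 from -0.63 to 0.37, Tapbp from -0.52 to 0.23, Nlrc5 from -0.60 to 0.24, H2-K1 from -0.12 to 0.37, H2-D1 from -0.034 to 0.40 and B2m from -0.14 to 0.26. In SCG+PSC against SCG, leaving out each library in turn moved H2-K1 from -0.28 to 0.23, H2-D1 from -0.19 to 0.16 and Psmb9 from -0.27 to 0.71. In SCG+MEF against SCG, leaving out each library in turn moved H2-T23 from -0.068 to 0.035, Nlrc5 from -0.33 to 0.072, H2-K1 from -0.20 to 0.31, H2-D1 from -0.19 to 0.15, Psmb8 from -0.048 to 0.53, Psmb9 from -0.18 to 0.80 and B2m from -0.035 to 0.10. In SCG+PSC against SCG+MEF, leaving out each library in turn moved H2-D1 from -0.13 to 0.14, H2-K1 from -0.26 to 0.14, Tap2 from -0.083 to 0.22, Psmb9 from -0.49 to 0.33 and Tapbp from -0.040 to 0.31. Such a fit assumes that the group left with fewer libraries varies like the others. These fits had no block, so a library left out also unbalances the replicate numbers between the groups.

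The limits are the 3 libraries per group in the fits, and a spread within groups that is wide for most members, so that intervals of their changes reach past 0. Each table was scaled apart, so no level was compared between stellate cells and explants. Counts of H2-K1, H2-D1 and the H2-Q genes are uncertain because their reads can share sequence, and mismatch of mPSC1 alleles with the reference was not tested.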
